A study of Homo sapiens with 5 samples.

Results

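Chromosome 19 carries the densest collection of zinc finger genes in the human genome, and the 234 genes described here are those on this chromosome whose symbol is ZNF followed by digits and an optional letter. They were taken from a table of 10596 genes, and each was represented by the transcript with the highest mean over all libraries. Most of these genes encode a KRAB box followed by a row of C2H2 zinc fingers. The fingers read DNA, often in transposable elements, and the KRAB box recruits TRIM28, which brings the histone methyltransferase SETDB1, HP1 proteins and histone deacetylases to silence the site. The genes lie in clusters that arose by repeated tandem duplication, so neighbours resemble each other in sequence.

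The cells were MDA-MB-231, an established human breast cancer line without hormone receptors or amplified HER2. They were grown with an siRNA against SET (siSET, 48 h), an siRNA against CIP2A (siCIP2A, 48 h by the treatment protocol, with no time in its own label) or a control siRNA (siNT, 48 h). Other cultures received OP449, which the study used to antagonise SET, at 1 µM for 12 h, or PBS for 12 h (PBS). SET and CIP2A are inhibitors of the phosphatase PP2A. Each condition was 1 library of poly(A)-primed RNA from a single cell line, with no replicate, so no test between conditions exists and each difference is one between 2 libraries. The control siRNA and PBS libraries differed in both treatment and time, and the effect of one cannot be told apart from that of the other. The SET and CIP2A transcripts were not analysed here, so the knockdowns were not checked at the RNA level.

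Values are scaled counts, which the authors had put on a common scale. The reads behind the gene table numbered 3641329 in siSET, 5602224 in siCIP2A, 5250308 in siNT, 4762701 in OP449 and 5513739 in PBS. One read was worth between 1.10 scaled counts in siCIP2A and 1.71 in siSET. The mesenchymal markers of the line were high in all 5 libraries, with VIM between 15670 and 20866 scaled counts, CD44 between 13820 and 20560, AXL between 15393 and 18128 and PLAU between 6157 and 9250. The progesterone receptor gene PGR was at 0 in all 5, and the epithelial cadherin gene CDH1 lay between 12.9 and 56.7. Of the other markers that were looked for as low, ERBB2 lay between 1049 and 1179, GATA3 between 133 and 250 and ESRP2 between 206 and 271, so their RNA was present.

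Of the 234 ZNF genes, 200 had a mean of at least 20 scaled counts over the 5 libraries and were used for folds, and 34 did not. The floor is a mean over all 5 libraries, so a low gene could pass it through a single high library. The 3 genes just above it were ZNF573, ZNF763 and ZNF699, and the 3 just below it were ZNF442, ZNF610 and ZNF382. No read was found in any library for 15 genes, and 5 of these lay in the cluster at 19.78 to 24.31 Mb (ZNF208, ZNF257, ZNF676, ZNF98 and ZNF99). The others were ZNF556, ZNF560, ZNF536, ZNF285, ZNF229, ZNF677, ZNF667, ZNF471, ZNF835 and ZNF135. ZNF471, ZNF667 and ZNF677 are known as genes whose promoters are methylated in several human cancers. They were not detectable at this depth, where 0 reads still leave room for 3, equal to 5.13 scaled counts in siSET and 3.31 in siCIP2A.

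The promoters of 204 of the 234 genes are held in RefSeq (GRCh38.p14) as 250 bases before the transcript start and 50 after it. Their base content was not used in choosing the genes. The ETS-type motif CCGGAAGT, searched on both strands, was present in 44 of these 204 genes, which is 21.57%, and absent from the windows of most of them. It was present in 4.948% of all 27305 genes with a promoter of the same length, and in 14.49% of the ZNF genes of other chromosomes. These shares are a description, and their difference was not tested. Both backgrounds came from all promoters held, whereas the chromosome 19 genes were limited to the gene table. The ZNF genes of other chromosomes numbered 214 here, against 124 in the gene table. The E-box CACGTG was found in 4.902% of the chromosome 19 genes, against 8.775% of all genes, and the cyclic AMP response element TGACGTCA in 3.922%, against 2.249%. The median promoter held 20 CpG dinucleotides, against 14 over all genes and 23 for the ZNF genes of other chromosomes. Those ZNF genes had CACGTG in 7.009% and TGACGTCA in 4.206%. None of these words contains another of them.

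The following promoters belong to genes with high levels or large folds described further on, and capitals mark CCGGAAGT or its reverse complement.
ZNF175, chr19:51571033-51571332, plus strand: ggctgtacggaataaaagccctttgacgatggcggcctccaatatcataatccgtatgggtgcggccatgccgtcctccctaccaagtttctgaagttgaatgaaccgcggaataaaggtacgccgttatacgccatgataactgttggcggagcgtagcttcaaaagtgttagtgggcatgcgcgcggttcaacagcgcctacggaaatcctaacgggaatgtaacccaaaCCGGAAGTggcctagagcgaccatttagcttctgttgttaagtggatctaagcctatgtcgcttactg
ZNF274, chr19:58182811-58183110, plus strand: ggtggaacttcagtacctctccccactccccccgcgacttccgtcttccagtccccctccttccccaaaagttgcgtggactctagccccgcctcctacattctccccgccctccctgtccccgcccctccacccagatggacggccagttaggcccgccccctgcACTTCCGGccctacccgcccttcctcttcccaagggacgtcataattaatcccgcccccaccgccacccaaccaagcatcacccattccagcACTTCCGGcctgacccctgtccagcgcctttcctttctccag
ZNF616, chr19:52139889-52140188, minus strand: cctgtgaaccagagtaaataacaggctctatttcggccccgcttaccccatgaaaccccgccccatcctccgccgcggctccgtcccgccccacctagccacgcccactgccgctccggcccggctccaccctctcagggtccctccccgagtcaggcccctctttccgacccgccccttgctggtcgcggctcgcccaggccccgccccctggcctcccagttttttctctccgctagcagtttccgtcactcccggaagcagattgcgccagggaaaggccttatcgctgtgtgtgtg
ZNF146, chr19:36214856-36215155, plus strand: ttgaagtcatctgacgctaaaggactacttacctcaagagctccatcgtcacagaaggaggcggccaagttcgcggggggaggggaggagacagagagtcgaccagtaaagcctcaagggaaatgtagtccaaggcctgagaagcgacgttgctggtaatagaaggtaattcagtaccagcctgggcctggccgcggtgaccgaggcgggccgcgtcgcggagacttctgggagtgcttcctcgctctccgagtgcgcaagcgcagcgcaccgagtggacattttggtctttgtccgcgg
ZNF573, chr19:37779537-37779836, minus strand: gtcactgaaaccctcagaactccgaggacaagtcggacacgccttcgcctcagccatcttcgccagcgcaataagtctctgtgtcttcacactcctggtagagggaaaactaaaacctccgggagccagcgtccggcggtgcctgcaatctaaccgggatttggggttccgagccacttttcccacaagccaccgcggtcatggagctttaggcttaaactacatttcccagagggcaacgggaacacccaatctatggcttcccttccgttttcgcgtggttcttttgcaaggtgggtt
ZNF823, chr19:11738897-11739196, minus strand: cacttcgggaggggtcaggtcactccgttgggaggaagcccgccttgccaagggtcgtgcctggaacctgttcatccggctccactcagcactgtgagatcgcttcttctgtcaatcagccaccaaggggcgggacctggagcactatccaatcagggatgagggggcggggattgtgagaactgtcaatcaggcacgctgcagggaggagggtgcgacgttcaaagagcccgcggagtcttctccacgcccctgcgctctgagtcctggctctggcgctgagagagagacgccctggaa
ZNF235, chr19:44304976-44305275, minus strand: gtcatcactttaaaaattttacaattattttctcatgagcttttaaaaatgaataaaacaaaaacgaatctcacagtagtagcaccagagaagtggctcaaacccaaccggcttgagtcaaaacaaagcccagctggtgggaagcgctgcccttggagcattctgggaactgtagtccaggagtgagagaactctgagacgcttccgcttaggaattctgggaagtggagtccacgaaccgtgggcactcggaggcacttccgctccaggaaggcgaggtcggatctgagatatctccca
ZNF175 carries the motif 18 bases before its transcript start. ZNF274 carries it at both 84 bases before and 8 bases after the start, in the reverse orientation. None of the 3 words searched was found in the windows of ZNF616, ZNF146, ZNF573, ZNF823 and ZNF235. The ZNF175 window had 22 CpG dinucleotides, the ZNF616 window 24, and the ZNF235 window 11.

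As a group these genes were expressed at low levels. Per kilobase of transcript, a gene past the floor had a median of 31.3 scaled counts, against 142.7 for the other genes of the table past the floor. Among the ZNF genes the level per kilobase was highest for ZNF146 at 532, followed by ZNF428 at 297, ZNF787 at 248, ZNF580 at 245 and ZNF274 at 242. ZNF580 was named after its value was seen. ZNF146 consists almost wholly of zinc fingers and has no KRAB box, and ZNF274 is the factor that recruits SETDB1 to the ends of other ZNF genes. The lowest level per kilobase past the floor was that of ZNF546, at 5.42. Together the 234 genes took 0.498% of the reads in siSET (95% exact binomial interval 0.491 to 0.505), 0.539% in siCIP2A (0.533 to 0.546) and 0.463% in siNT (0.457 to 0.468). They took 0.524% in OP449 (0.518 to 0.530) and 0.474% in PBS (0.469 to 0.480). These intervals, like all others here, cover counting error only. In each pair the library with the siRNA against a PP2A inhibitor, or with OP449, had the larger share.

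Across the 200 genes, siSET, siCIP2A and OP449 all showed a small upward displacement relative to their controls. The median level was 103.5 scaled counts in siSET, 113.2 in siCIP2A and 92.4 in siNT, and 109.5 in OP449 and 101.5 in PBS. The median log2 fold on value + 1 was 0.12 in siSET against siNT, where 137 genes were above 0 and 63 below. It was 0.26 in siCIP2A against siNT (160 above, 40 below) and 0.11 in OP449 against PBS (136 above, 64 below). Over all 6564 genes past the floor the medians were 0.01, 0.02 and 0.02 in the same order. For siNT against PBS, the difference between the controls, the ZNF median was -0.04 (85 above, 115 below) and that of all genes -0.01. Because siSET and siCIP2A share the siNT library, a low siNT value raises both of their folds at once.

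**Figure D1:**
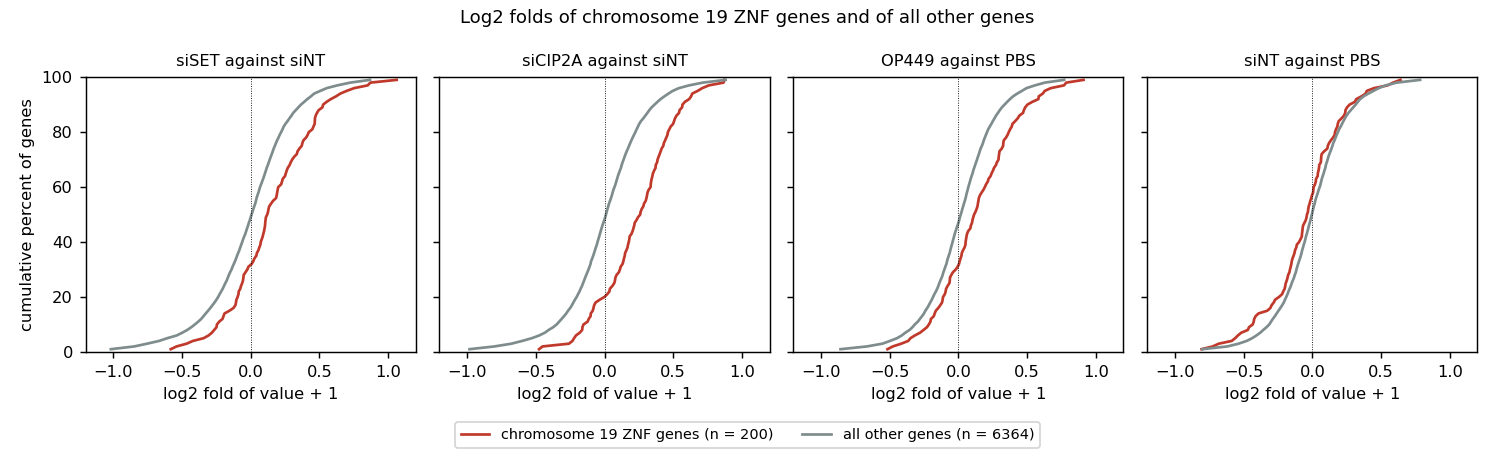
Cumulative percent of genes (vertical axis) by log2 fold of value + 1 (horizontal axis) for each pair of libraries, drawn from percentiles 1 to 99. The curve of the 200 chromosome 19 ZNF genes past the floor (red) lies right of that of the 6364 other genes (grey) in siSET, siCIP2A and OP449 against their controls, with medians of 0.12, 0.26 and 0.11, and slightly left of it in siNT against PBS, with a median of -0.04.

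Pooled over the reads of the 200 genes, the log2 ratio was 0.11 in siSET against siNT (95% counting interval 0.08 to 0.14) and 0.22 in siCIP2A against siNT (0.19 to 0.24). It was 0.12 in OP449 against PBS (0.09 to 0.14) and -0.04 in siNT against PBS (-0.07 to -0.02). With PBS in place of siNT as the control, the pooled ratio was 0.07 for siSET (0.04 to 0.09) and 0.17 for siCIP2A (0.15 to 0.20), and the median folds were 0.10 and 0.17. Of the 200 genes, 75 (37.5%) had their lowest value in siNT, against 19.3% of the other 6364 genes, and 53 (26.5%) had it in PBS, against 15.2%. The highest value was in siCIP2A for 65 genes (32.5%), against 21.8% of the others, and in siNT for 11 (5.5%), against 16.5%.

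The displacement was broad and low rather than made of a few large folds. In siSET against siNT, 3 ZNF genes were at least 2-fold higher (0.64% of all genes tested were) and 0 at least 2-fold lower (1.04%). At 1.5-fold, 16 were higher (3.66%) and 2 lower (5.26%). The counting interval of the ratio lay above equality for 26 genes (18.7%) and below it for 5 (18.7%). These counts were 13% and 2.5% of the genes, both below the background shares, and ZNF genes had fewer reads than most genes. For means of 20 to 50, 50 to 100, 100 to 200 and from 200, upward shares were 8.82, 8.47, 16.7 and 17%. The other genes of these classes had 5.49, 10.9, 12.4 and 22.1%.

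In siCIP2A against siNT, 2 ZNF genes were at least 2-fold higher (0.731% of all genes) and 0 lower (0.929%). At 1.5-fold, 18 were higher (3.63%) and 1 lower (4.08%). The counting interval lay above equality for 50 genes (20.4%) and below it for 2 (19.3%). The upward count was 25% of the genes, above its background share, and the downward count was 1%, below its background share.

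In OP449 against PBS, 2 ZNF genes were at least 2-fold higher (0.472% of all genes) and 0 lower (0.579%). At 1.5-fold, 14 were higher (2.68%) and 1 lower (2.68%), and the counting interval lay above equality for 30 (18.3%) and below it for 7 (16.2%). These interval counts were 15% and 3.5% of the ZNF genes, each below its background share, which includes genes with more reads. For means of 20 to 50, 50 to 100, 100 to 200 and from 200, upward shares were 5.88, 10.2, 10 and 34%. Other genes of these classes had 5.49, 10.2, 13.6 and 21.2%. In siNT against PBS, 1 was at least 2-fold higher (0.427%) and 1 lower (0.35%). At 1.5-fold, 5 were higher (2.3%) and 8 lower (2.41%), with the interval above equality for 5 (16.8%) and below it for 12 (16.9%). siCIP2A against siNT and OP449 against PBS use no library in common. Of the 18 and 14 genes at least 1.5-fold higher in them, ZNF321 and ZNF433 were in both, which is 2 of 18 and 2 of 14. ZNF433, named after its values were seen, had 60.7 scaled counts in siCIP2A and 36.7 in siNT, and 88.9 in OP449 and 55.5 in PBS. Among the other genes, 31 were in both of 220 and 162.

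The named genes below are those with the highest means and the most extreme folds, and the plot of 15 of them shows their levels. ZNF571, a KRAB zinc finger gene at chr19:38055156-38085673 (hg19, minus strand), had 51.3 scaled counts in siSET (30 reads), 38.7 in siCIP2A (35) and 16.6 in siNT (14), with 29.6 in OP449 (23) and 24.9 in PBS (22). siNT was the lowest of the 5 libraries. The log2 fold was 1.57 in siSET against siNT (counting interval 0.67 to 2.66) and 1.17 in siCIP2A against siNT (0.29 to 2.23). ZNF571 overlaps a transcript of ZNF540, and reads of both cannot be told apart without strand.

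ZNF570, in the same stretch of the cluster, had 53.0 scaled counts in siSET, 42.0 in siCIP2A and 24.9 in siNT, with 41.2 in OP449 and 44.2 in PBS. ZNF569, the gene beside ZNF570, had 164 in siSET, 150 in siCIP2A and 104 in siNT, with 202 in OP449 and 168 in PBS. For ZNF569, ZNF570 and ZNF571, siNT was the lowest library. ZNF793, which lies between ZNF570 and ZNF571 and was below the floor, had 0 reads in siSET, 2.21 scaled counts in siCIP2A and 5.93 in siNT, with 1.29 in OP449 and 1.13 in PBS. The log2 fold of ZNF570 in siSET against siNT was 1.06 (0.25 to 1.96), and that of ZNF569 was 0.65 (0.22 to 1.09). In siNT against PBS the folds were -0.80 for ZNF570 (-1.67 to -0.03) and -0.68 for ZNF569 (-1.08 to -0.30).

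ZNF823, at chr19:11832080-11849760 (minus strand), had 183 scaled counts in siSET (107 reads), 115 in siCIP2A (104) and 80.6 in siNT (68), with 120 in OP449 (93) and 109 in PBS (96). Here siSET stood above the other 4 libraries. The log2 fold in siSET against siNT was 1.17 (0.73 to 1.64), and in siCIP2A against siNT 0.51 (0.06 to 0.97). ZNF559, a KRAB gene of the first large cluster, had 262 in siSET, 211 in siCIP2A and 145 in siNT, with 170 in OP449 and 176 in PBS. Its log2 fold in siSET against siNT was 0.85 (0.50 to 1.21). ZNF559 overlaps the ZNF177 transcript on the same strand, so reads in the shared part cannot be told apart even by strand.

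ZNF114, a gene with few fingers at chr19:48774654-48790863 (plus strand), had 210 scaled counts in siSET (123 reads), 297 in siCIP2A (269) and 124 in siNT (105), with 194.5 in OP449 (151) and 256 in PBS (226). Its log2 fold was 1.25 in siCIP2A against siNT (0.92 to 1.59) and -1.04 in siNT against PBS (-1.39 to -0.70). The siCIP2A and PBS values lay close together, and with PBS as the control the fold was 0.21. In OP449 against PBS it was -0.40 (-0.70 to -0.09), so that ZNF114 was among the 8 lowest genes there.

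ZNF175, a KRAB gene also known as OTK18 and described as a repressor of HIV in macrophages, had its highest level in siCIP2A. It had 552.5 scaled counts in siSET, 800.5 in siCIP2A and 549 in siNT, with 536 in OP449 and 517 in PBS. siCIP2A alone stood apart from the other 4 libraries. The log2 fold in siCIP2A against siNT was 0.54 (0.37 to 0.72), on 725 and 463 reads. ZNF317 had 590 in siSET, 700 in siCIP2A and 552 in siNT, with 617 in OP449 and 557 in PBS. Its log2 fold in siCIP2A against siNT was 0.34 (0.17 to 0.52). ZNF266 had 532 in siSET, 526 in siCIP2A and 387.5 in siNT, with 447 in OP449 and 444 in PBS, so that siSET and siCIP2A were both above the other libraries. Its log2 folds against siNT were 0.46 in siSET (0.23 to 0.69) and 0.44 in siCIP2A (0.23 to 0.65).

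ZNF616 and ZNF234 were higher in siCIP2A than in siNT, with siSET close to siNT. ZNF616 had 78.7 scaled counts in siSET, 132.5 in siCIP2A and 72.3 in siNT, with 113 in OP449 and 105 in PBS. ZNF234 had 77.0 in siSET, 142 in siCIP2A and 83.0 in siNT, with 111 in OP449 and 119 in PBS. The log2 folds in siCIP2A against siNT were 0.87 for ZNF616 (0.42 to 1.34) and 0.77 for ZNF234 (0.35 to 1.22). ZNF224, known as a repressor of the aldolase A gene and chosen after its values were seen, had 137 in siSET, 224 in siCIP2A and 142 in siNT, with 179 in OP449 and 162 in PBS. Of the 40 genes below siNT in siCIP2A, 2 had a counting interval below equality. ZNF805 had 166 scaled counts in siSET, 87.2 in siCIP2A and 134 in siNT, and its log2 fold was -0.61 (-1.05 to -0.19). ZNF439 had 115 in siCIP2A, against 160 in siNT, with a log2 fold of -0.47 (-0.86 to -0.10).

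In OP449 the 2 genes at least 2-fold above PBS were low ones. ZNF235 had 34.2 scaled counts in siSET, 27.6 in siCIP2A and 26.1 in siNT, with 25.8 in OP449 (20 reads) and 10.2 in PBS (9 reads). PBS was the lowest library, so the log2 fold was 1.26 in OP449 against PBS (0.14 to 2.66) and 1.27 in siNT against PBS (0.18 to 2.66). ZNF573 had 28.3 in OP449 (22 reads) and 13.6 in PBS (12 reads), with a log2 fold of 1.01 and an interval that reached -0.02. ZNF573 lay just above the floor, and without its OP449 value its mean would fall below 20. Higher levels were reached by ZNF30, with 96.6 in OP449 and 51.0 in PBS, and ZNF615, with 129 in OP449 and 72.5 in PBS. Their log2 folds were 0.91 (0.37 to 1.49) and 0.82 (0.36 to 1.30). Of the lower genes, ZNF780A had 91.5 in OP449, against 135 in PBS (-0.56, interval -1.01 to -0.12), and ZNF71 had 143, against 199.5 (-0.48, interval -0.84 to -0.13).

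The genes with the lowest siSET folds were ZNF546 (29.1 scaled counts in siSET and 46.2 in siNT), ZNF576 (113 and 172), ZNF814 (49.6 and 74.7) and ZNF780B (157 and 232). The counting interval excluded equality for ZNF576 (-1.05 to -0.18) and ZNF780B (-0.94 to -0.20) and not for ZNF546 and ZNF814. Among the genes of highest level, ZNF146 had 1623 in siSET, 1919 in siCIP2A and 1691 in siNT, with 1923 in OP449 and 1695 in PBS. Its log2 folds were -0.06 in siSET, 0.18 in siCIP2A (0.08 to 0.28) and 0.18 in OP449 (0.08 to 0.29). ZNF274 had 582 in siSET, 678 in siCIP2A and 602 in siNT, with 585 in OP449 and 623.5 in PBS, and no interval of its folds excluded equality.

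**Figure D2:**
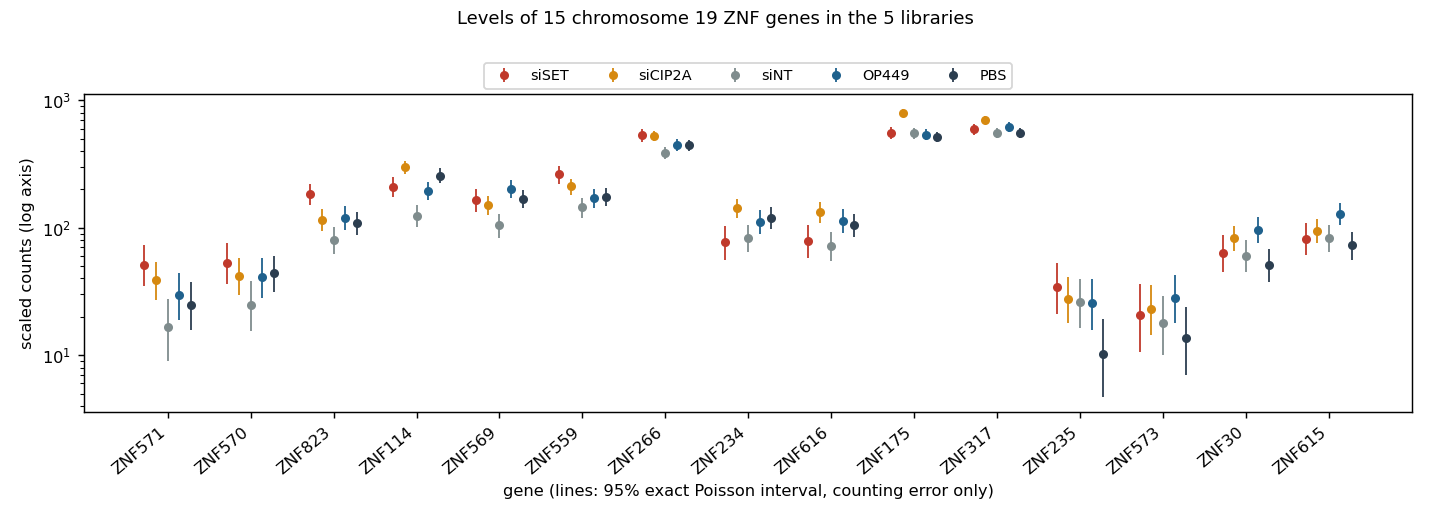
Scaled counts (log axis) of 15 chromosome 19 ZNF genes in the 5 libraries, with points for siSET, siCIP2A, siNT, OP449 and PBS from left to right and lines for the 95% exact Poisson interval of each count. siNT is the lowest point for genes that include ZNF571, ZNF570, ZNF823, ZNF114, ZNF569, ZNF559, ZNF266, ZNF616 and ZNF317. siCIP2A is the highest for genes that include ZNF175 (at 800.5), ZNF616, ZNF234, ZNF317 and ZNF114, and PBS is the lowest for ZNF235 at 10.2.

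Some genes with known functions, chosen after their values were seen, lay within this range. ZNF91 and ZNF93, which repress SVA and L1 retrotransposons, had 161 and 164 scaled counts in siSET, 211 and 163 in siCIP2A and 191 and 118.5 in siNT. They had 151 and 133 in OP449, against 145 and 105 in PBS. ZNF473, part of the machinery that processes histone messages, had 364 in siSET, 365.5 in siCIP2A and 265.5 in siNT, with 404.5 in OP449 and 367 in PBS, so siNT was again lowest.

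Along the chromosome the members formed 16 clusters when a gap of more than 1 Mb started a new one. Of these, 7 held at least 5 genes past the floor, with 183 of the 200. The cluster at chr19:7069471-9879410 (14 genes past the floor) had median log2 folds of 0.11 in siSET, 0.35 in siCIP2A and 0.02 in OP449 against their controls. That at chr19:11594243-12740676 (23 genes) had 0.24, 0.24 and 0.10, and that at chr19:19779663-24312652 (23 genes), next to the centromere on the short arm, had 0.28, 0.31 and 0.07. With PBS as the control, these clusters had siSET medians of 0.05, 0.08 and 0.23 in the same order. Their siCIP2A medians were then 0.23, 0.09 and 0.21.

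On the long arm, the cluster at chr19:36673188-38270230 (21 genes) had median log2 folds of 0.23 in siSET, 0.39 in siCIP2A and 0.18 in OP449. There 20 of 21 genes were above siNT in siCIP2A, against 52.62% of all genes. In siNT against PBS, 17 of the 21 were below 0, with a median of -0.15. With PBS as the control, 14 of the 21 were above it in siCIP2A (median 0.17) and 11 in siSET (0.03). The cluster at chr19:52074531-54083523 (33 genes) had 0.10, 0.35 and 0.17. Of its 33 genes, 30 were above siNT in siCIP2A and 28 above PBS in OP449, where 53.44% of all genes were. With PBS as the control, 28 of the 33 were above it in siCIP2A (median 0.31) and 19 in siSET (0.01). The cluster at chr19:55987699-58992596 (50 genes) had 0.10, 0.15 and 0.10. When divided at gaps over 0.5 Mb, its 11 genes at 55.99 to 57.18 Mb had -0.07, -0.08 and -0.11. Its 39 genes at 57.70 to 58.99 Mb had 0.13, 0.17 and 0.19.

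The cluster at chr19:44037340-45579688 (19 genes) also gave other values. Its median log2 fold was -0.06 in siSET, 0.08 in siCIP2A and 0.11 in OP449, and it was 0.16 in siNT against PBS, where the other 6 clusters had medians from -0.15 to -0.02. With PBS as the control its medians were 0.19 for siSET and 0.15 for siCIP2A, which lay within the range of the other clusters (0.01 to 0.23 for siSET, 0.09 to 0.31 for siCIP2A). The pooled ratio in siCIP2A against siNT was 0.07 there (counting interval -0.02 to 0.16), against 0.31 at 36.67 to 38.27 Mb (0.24 to 0.39) and 0.32 at 52.07 to 54.08 Mb (0.26 to 0.38). The cluster at 55.99 to 58.99 Mb had 0.10 (0.05 to 0.14), which overlaps the interval of the 44.04 to 45.58 Mb cluster. With PBS as the control the pooled siCIP2A ratio was 0.14 at 44.04 to 45.58 Mb (0.05 to 0.23), against 0.22 at 36.67 to 38.27 Mb (0.15 to 0.29), 0.28 at 52.07 to 54.08 Mb (0.22 to 0.33) and 0.09 at 55.99 to 58.99 Mb (0.05 to 0.14). The first of these intervals then overlapped the other 3. The lowest pooled siCIP2A ratio with PBS as the control was at 11.59 to 12.74 Mb, at 0.05 (-0.05 to 0.14). There 14 of 23 genes were above PBS, and the pooled ratio against siNT was 0.18 (0.08 to 0.27). No replicate measures how far clusters vary between cultures.

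**Figure D3:**
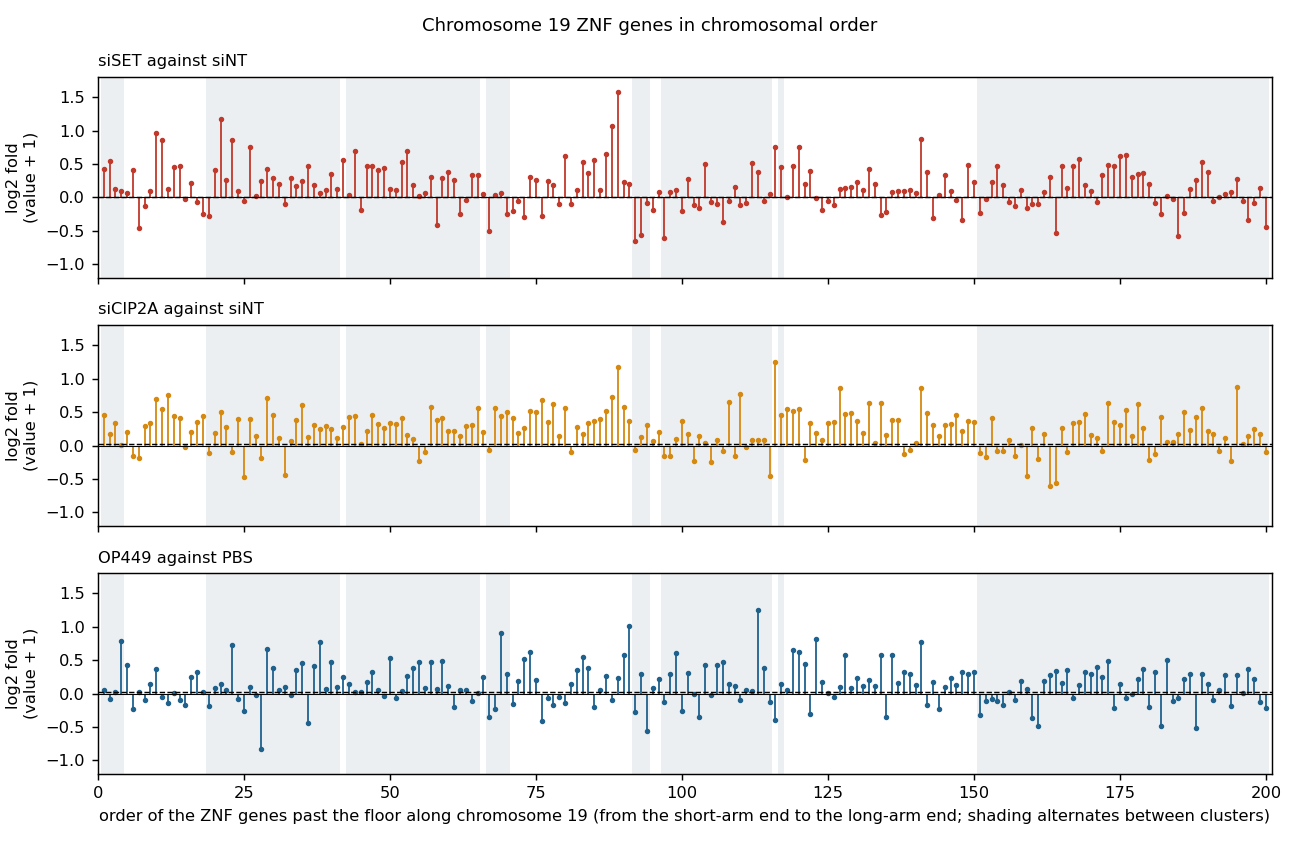
Log2 fold of value + 1 (vertical axis) of the 200 ZNF genes past the floor in their order along chromosome 19, with shading that alternates between clusters and a dashed line at the median of all genes. Most genes lie above the line in siCIP2A against siNT (160 of 200 above 0), and the largest fold in siSET against siNT is that of ZNF571, at 1.57.

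**Figure D4:**
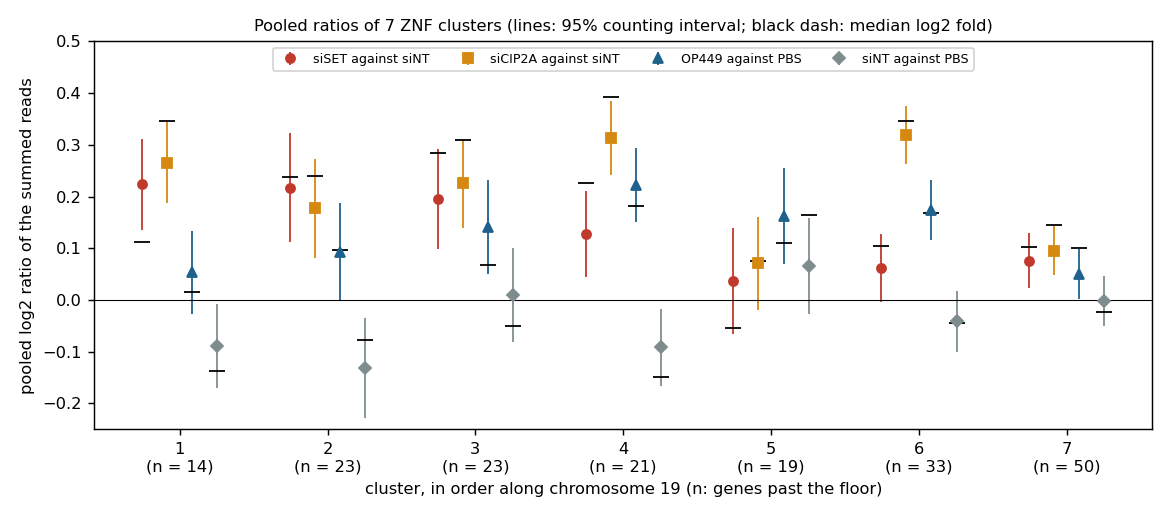
Pooled log2 ratio of the summed reads (vertical axis, lines for the 95% counting interval) and median log2 fold (black dash) of the 7 clusters with at least 5 genes past the floor, in order along the chromosome. In siCIP2A against siNT the fourth and sixth clusters have the highest ratios, 0.31 and 0.32, and the fifth the lowest, 0.07.

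The displacement was set beside features of the transcripts. ZNF transcripts had a median GC content of 42.6%, against 50.9% for the other genes, and GC content moved with the OP449 fold over all genes. Other genes with under 40% GC had a median log2 fold of 0.12 in OP449 against PBS, those with 40 to 45% had 0.07 and those with at least 45% had -0.02. The ZNF genes of the same classes had 0.10, 0.11 and 0.13. Below 40% GC the ZNF median in OP449 was therefore no higher than that of other genes. In siCIP2A against siNT the ZNF genes had 0.25, 0.31 and 0.17 in these classes, where the other genes had 0.01, 0.03 and 0.01. After a linear trend in length and GC content over all genes was removed, the ZNF medians were 0.11 in siSET, 0.24 in siCIP2A and 0.07 in OP449, against 0.03, 0.02 and 0.02 over all genes.

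**Figure D5:**
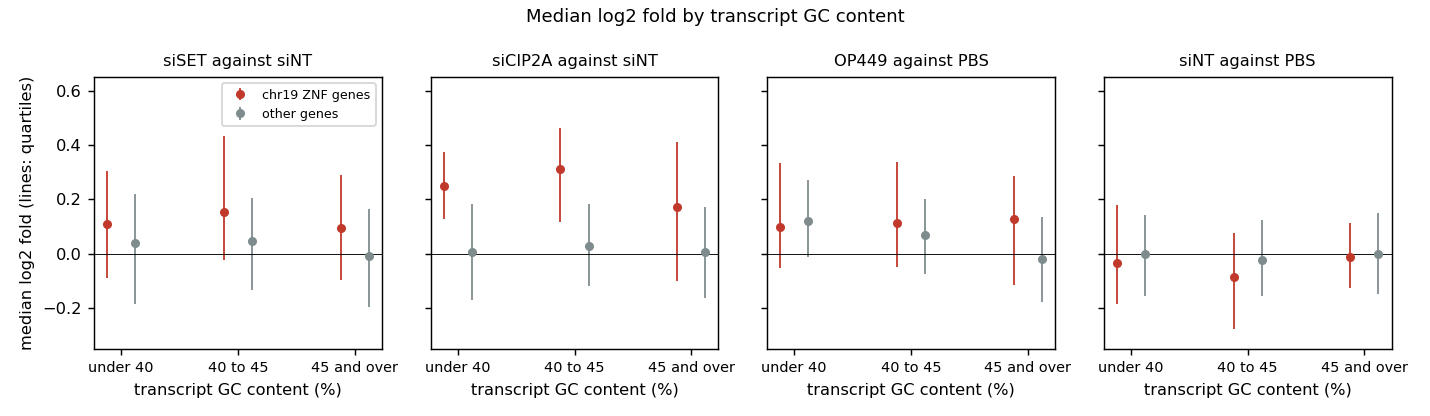
Median log2 fold of value + 1 (lines for the quartiles) by GC content of the transcript for chromosome 19 ZNF genes (red) and other genes (grey). In siCIP2A against siNT the ZNF medians are 0.25, 0.31 and 0.17 and those of other genes at most 0.03, whereas in OP449 against PBS the other genes under 40% GC reach 0.12.

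In siCIP2A the ZNF median was above that of other genes at every level of expression. The ZNF medians against siNT were 0.33 for means of 20 to 50 scaled counts, 0.28 for 50 to 100, 0.28 for 100 to 200 and 0.17 for 200 and over. The other genes had medians between 0.00 and 0.05 in these classes. By a letter pattern for the core of the KRAB box, read in GENCODE transcripts, 141 genes past the floor had the pattern and 57 did not. Their median log2 folds were 0.30 and 0.14 in siCIP2A against siNT, 0.13 and 0.09 in siSET against siNT, and 0.13 and 0.06 in OP449 against PBS. A gene without the pattern may still encode a diverged KRAB box. The 40 genes with CCGGAAGT in a promoter had medians of 0.04 in siSET, 0.18 in siCIP2A and 0.05 in OP449, and the 139 with a promoter and without it had 0.12, 0.26 and 0.11.

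Related gene groups had smaller or opposite medians. The ZNF genes of other chromosomes in the table (109 past the floor) had median log2 folds of 0.02 in siSET, 0.07 in siCIP2A and 0.09 in OP449. The 642 other genes of chromosome 19 past the floor had -0.05, -0.05 and -0.04. The 11 chromosome 19 zinc finger genes of other names past the floor, such as ZFP14 and ZFP30, had 0.04, 0.14 and 0.06. All 11 were above siNT in siCIP2A, against 52.62% of all genes. None of these differences between groups has a test.

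A list of 24 genes of KRAB repression and related chromatin factors included ZNF274, which is itself 1 of the 200. Of the 24, 17 were past the floor, with median log2 folds of -0.02 in siSET, 0.01 in siCIP2A and 0.04 in OP449. In OP449 against PBS, 12 of the 17 were above 0, which is 70.59%, against 53.44% of all genes. The pooled log2 ratio of the 17 was 0.06 there (0.03 to 0.09). In siCIP2A against siNT, 9 were above 0 and 8 below, and the pooled ratio, which the most abundant genes dominate, was -0.09 (-0.11 to -0.06). The counting interval lay below equality there for 7 (41.2%, against 19.3% of all genes) and above it for 4 (23.5%, against 20.4%). In siSET against siNT the pooled ratio was -0.02 (-0.05 to 0.01). TRIM28, the KRAB corepressor, had 5052 scaled counts in siSET, 4400 in siCIP2A and 4911 in siNT, with 5264 in OP449 and 5109 in PBS. SETDB1 had 438 in siSET, 556.5 in siCIP2A and 425.5 in siNT, with 475 in OP449 and 462.5 in PBS. Its log2 fold in siCIP2A against siNT was 0.39 (0.19 to 0.59), while that of TRIM28 was -0.16 and that of the deacetylase gene HDAC1 -0.39. CHD3, a subunit of the NuRD complex that TRIM28 binds, had 1095 in siSET, 1166 in siCIP2A and 1447 in siNT, and its log2 folds were -0.40 and -0.31. CBX5 went the other way against siNT, with 0.35 in siSET (0.20 to 0.49) and 0.22 in siCIP2A (0.08 to 0.35). For CBX5, however, siNT was the lowest of the 5 libraries and PBS the highest, so siSET and siCIP2A were both below PBS. In siNT against PBS the log2 fold was -0.38 for CBX5 (-0.51 to -0.25) and 0.16 for CHD3 (0.04 to 0.28). In siSET the interval lay above equality for 3 genes (17.6%) and below for 2 (11.8%), against 18.7% of all genes in each direction. In OP449 against PBS it lay above for ATF7IP (0.26), CHD4 (0.26) and TRIM33 (0.335), and below for KDM4B (-0.35). These were 17.6% and 5.88% of the 17, against 18.3% and 16.2% of all genes.

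Many of these genes have near-identical relatives in the same cluster, and the sources used here do not say how reads that match several of them were counted. Values of single genes in dense clusters are uncertain for that reason. Of the 200 genes, 6 overlapped the row of another gene, and without them the median log2 folds were 0.12 in siSET, 0.25 in siCIP2A and 0.11 in OP449. Reads of ZNF177 came from a transcript now assigned to the ZNF559-ZNF177 readthrough.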

How the data were processed

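RNA of 5 MDA-MB-231 libraries, 1 per group, was measured by sequencing. The authors deposited a signal for each RefSeq transcript, already on a common scale and referred to as scaled counts. The submitters' processing notes name hg19, CASAVA and Bowtie 1.0.0 without roles. No source used here names the counter, its strand setting or the scaling method. All values (100%) were whole multiples of 1 read within 0.001 reads, so reads were recovered.

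Groups came from the labels. Of 16383 rows, 334 belonged to the 234 genes, and 15 symbols turned into dates were restored through accessions. Log2 folds were taken on value + 1, which understates low genes. Ratios have 95% Clopper-Pearson counting intervals, without the pseudocount. Python 3.11.15, pandas 2.3.3 and scipy 1.17.1 were used, and the scripts were tested on simulated data. Lengths, GC content and the KRAB pattern came from GENCODE 29, and promoters from RefSeq. Coordinates of genes are hg19. Named genes were the 10 highest means and the 8 highest and 8 lowest folds per comparison. They also were the highest gene of each cluster, the 3 genes on each side of the floor and the listed KRAB repression genes. The members and lists were chosen with earlier results of these data known. Floor, pseudocount, threshold, scaling, transcript choice, control, trend and cluster gap were varied.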

Additional observations from a re-analysis of the deposited data

How the results depend on the processing

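In all settings tried the median log2 fold and the pooled ratio of the ZNF genes kept their sign in the 4 comparisons. The counts of genes at least 2-fold apart rest on few reads and moved most. Except with PBS as the control, no share over all genes in the same setting stands beside them. They show how the ZNF counts moved and cannot be set against a background. With a floor of 50 scaled counts the ZNF counts were 1 higher in siSET and 1 in siCIP2A against siNT, and 0 in OP449 and 0 in siNT against PBS. With no floor, 9 were higher and 3 lower in siSET, 4 higher and 3 lower in siCIP2A, 5 higher in OP449 and 3 higher in siNT, and the medians were 0.20 in siCIP2A and 0.083 in OP449. With a pseudocount of 10, 1 was higher in siCIP2A, 0 in OP449, and 0 higher and 0 lower in siNT against PBS. At 1.5-fold the counts were 16 and 2 in siSET, 18 and 1 in siCIP2A, 14 and 1 in OP449 and 5 and 8 in siNT against PBS. With PBS as the control, 1 was at least 2-fold lower in siSET (0.701% of all genes) and 1 higher in siCIP2A (0.655%). The pooled ratios were then 0.066 and 0.17, and the siCIP2A median was 0.17. Rescaling to equal totals gave OP449 a median of 0.14 and a pooled ratio of 0.14. The median of ratios and the upper quartiles each left 1 gene higher in OP449, as did the demand that the counting interval exclude equality. Removing the length and GC trend left 1 higher and a median of 0.068 in OP449, and 0 lower in siNT against PBS. Leaving out genes that overlap another left 1 higher in siCIP2A. An exact binomial test of the reads of both libraries, adjusted over all genes and added after seeing the data, compares libraries and not conditions. It called 15 ZNF genes higher and 3 lower in siSET (894 and 939 of 6564 genes in all), 33 and 2 in siCIP2A (1020 and 1054), 17 and 3 in OP449 (831 and 818) and 1 and 7 in siNT against PBS (816 and 780). Requiring it left 0 genes at least 2-fold higher in OP449 and 0 in siNT against PBS. The causes of these moves were not tested. Of 1093 values of named genes, 1089 moved by less than their counting interval, and 24 changed sign. The total includes settings that leave a gene's own fold as it was, so these values could not move. They were 131 with no floor, 80 with a floor of 50 and 107 without overlapping genes. All 4 values that moved further were among the 60 with PBS as the control, of which 7 changed sign. With clusters divided at gaps over 0.5 Mb, the lowest cluster median in siCIP2A was -0.08 and in OP449 -0.11, each at 55.99 to 57.18 Mb. No paired analysis was possible because each group holds 1 library. Depth limits single genes, since a gene of 20 scaled counts rests on fewer than 20 reads in each library.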
